A study of Macaca fascicularis with 15 samples.

Results

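Solute carriers are membrane proteins that move sugars, amino acids, ions, neurotransmitters, metals and other small molecules across membranes. This account follows 166 of them, of 12995 genes measured in eye and retina of cynomolgus monkeys (Macaca fascicularis). They are all the genes named SLC, a family number, A and a member number in every table, which makes 210 names, less the 33 mitochondrial carriers of the SLC25 family and 11 carriers that mark a retinal cell type, pigment cells or the vesicles of one kind of neuron. One further name, SLC7A3, had no value, and 1 exact duplicate of SLC34A2 was dropped. The members fall into 42 families, grouped here into 15 classes by what the families carry. The label plasma membrane holds for most of them but not for all: 19 belong to families found mainly on vesicles, lysosomes, endoplasmic reticulum or Golgi. That count goes by family and leaves out single members of other families on vesicles or lysosomes, such as SLC6A17, SLC2A6 and SLC36A1.

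RNA sequencing was done on wild-type animals, and each library was prepared from tissue of 1 eye kept in an RNA-preserving solution. There were 4 libraries of central retina, 3 of peripheral retina, 2 of whole retina and 2 of whole eye; 4 further samples of the 15 in the series have no table and were not analysed here. The labels call the eye and retina samples biological replicates but name no animal, so p-values measure the spread between these libraries. No age, treatment or batch is given.

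Retinal neurons live mainly on glucose, which reaches them across the pigment epithelium and the retinal capillaries through facilitative glucose transporters of the SLC2 family, and lactate leaves or enters cells through monocarboxylate transporters of the SLC16 family. Glutamate, released by photoreceptors and bipolar cells, is taken up by SLC1 carriers, while GABA, creatine and taurine are carried by the SLC6 family. Exchangers of sodium for protons or calcium, and cotransporters of chloride with cations, set the ion gradients on which neuronal signalling rests. Many other members, such as the organic anion and dicarboxylate carriers, are best known from the polarised epithelia that line a tissue.

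The value of a gene in a library is the normalized signal that the authors deposited; how it was scaled, by depth or gene length, is not stated, so levels are compared between libraries for 1 gene and not between genes. The values of a library summed to 299480 to 375035, and 171 to 501 genes were at 0. The number of reads behind a value is unknown. Among members, SLC16A7, a monocarboxylate transporter, was listed at 0 in every library. In 141 members the mean reached 1 in at least 1 group and these were tested; the other 25 did not pass this filter, and none of them exceeded 1.14 in any library.

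The tissue labels were checked against marker genes. Summed values of 6 pigment epithelium markers ranged from 66.4 to 164 in central retina, 359 to 523 in peripheral retina, 2025 to 2189 in whole retina and 2361 to 2373 in whole eye. The sum of 6 ganglion cell markers was 1967 to 3802 in central retina, 353 to 647 in peripheral retina, 481 to 706 in whole retina and 659 to 760 in whole eye. The sum of 6 Müller glia markers was 1027 to 1336 in central retina, against 2009 to 2357 in peripheral retina. The whole retina libraries also held markers foreign to neural retina: 3 smooth muscle markers summed to 499 to 598, against at most 4.36 in any regional library, and 4 fibrous tissue markers to 173 to 261, against at most 12.6. These are markers of tissues next to the neural retina, which the label whole retina does not name.

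Central and peripheral retina differed in 39 of the 141 tested members. Of these, 20 were higher in central retina and 19 lower, which is 27.7% of the members tested; the same test called 21.3% of all 11933 genes, 12.5% higher and 8.76% lower. The median log2 difference of the members was 0.03, against -0.01 over all genes. The balance of directions was not the same in each class. In sodium, calcium and proton exchange, 5 of 9 tested members were higher and 0 lower, and in the sugar families 4 of 16 were higher and 0 lower. Among carriers of monocarboxylates, dicarboxylates and citrate, 1 of 11 was higher and 5 were lower; 3 of 19 metal carriers and 2 of 3 fatty acid carriers were lower, with 0 higher in both classes. Calls were made by limma, a linear model fitted across all genes on log2(value + 1), at an adjusted p under 0.05. In bulk tissue, fewer cells of a type and less RNA per cell cannot be told apart.

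**Figure D1:**
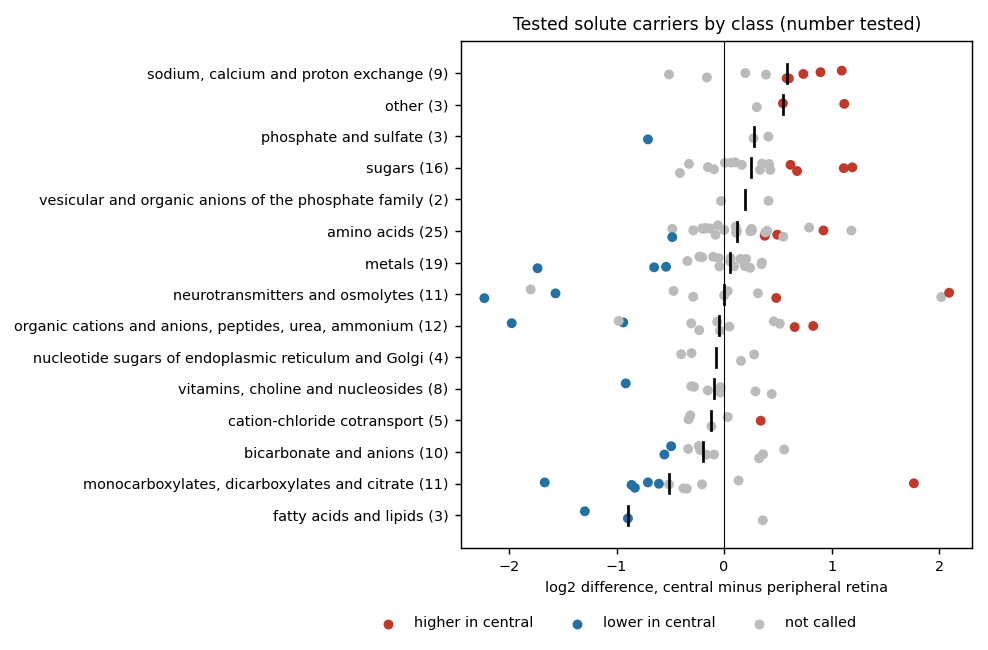
Log2 difference between central and peripheral retina (x axis) of each of the 141 tested solute carriers, by class (y axis, with the number tested), where a positive value means higher in central retina. Each point is a gene, coloured where it passed the threshold, and the black bar is the class median; the exchangers of sodium, calcium and protons lie mostly to the right and the carriers of monocarboxylates, dicarboxylates and citrate mostly to the left, apart from SLC16A3 at 1.77.

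Among the fuel carriers, 2 hexose transporters and 1 lactate transporter were higher in central retina, while the main glucose transporter was not called. SLC16A3, the transporter that exports lactate from glycolytic cells, had values of 41.8, 46.1, 50.3 and 64.5 in central retina and 14.1, 11.6 and 16.8 in peripheral retina. All central libraries lay above all peripheral ones, and the ratio of the means was 3.58 (log2 difference 1.77 ± 0.16 SE, limma adjusted p = 7.68e-05). SLC2A3, the glucose transporter typical of neurons, stood at 22.1, 31.3, 28.3 and 26.2 in central retina and at 13.4, 9.45 and 13.0 in peripheral retina, again without overlap (1.11 ± 0.15, limma adjusted p = 0.000598). SLC2A6, a hexose transporter of lysosomes, had values of 19.1, 20.7, 22.3 and 22.1 in central retina, against 9.43, 7.42 and 9.18 in peripheral retina (log2 difference 1.19 ± 0.20, limma adjusted p = 0.00209).

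SLC2A1, the glucose transporter of the blood-retina barriers and of most retinal cells, averaged 193.8 ± 26.8 in central retina (SD, n = 4) and 191.7 ± 11.1 in peripheral retina (SD, n = 3). The libraries overlapped, and the 95% interval of the log2 difference ran from -0.26 to 0.28. SLC16A1, a monocarboxylate transporter that moves lactate in either direction, averaged 59.9 ± 10.8 in central and 69.2 ± 13.2 in peripheral retina, with an interval from -0.56 to 0.15. Both names share their start with others in the tables, a point taken up below, but within each set the other names held far less. The names beginning with SLC2A1 reached at most 19.0 under SLC2A11 in any library, and those beginning with SLC16A1 at most 9.09 under SLC16A14.

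In the sugar families the other calls were SLC5A3 and SLC5A8, neither of which is a glucose carrier. SLC5A3, which takes up the osmolyte myo-inositol, averaged 5.84 ± 0.713 in central and 3.56 ± 1.27 in peripheral retina (log2 difference 0.62 ± 0.18, limma adjusted p = 0.033). SLC5A8, a sodium-coupled monocarboxylate carrier, averaged 1.35 ± 0.221 in central and 0.467 ± 0.095 in peripheral retina (log2 difference 0.68 ± 0.11, limma adjusted p = 0.00168). SLC45A1, a proton-coupled sugar transporter known from brain and placed here in the class of other families, was higher in every central library, at 11.4, 12.9, 14.1 and 18.1, against 6.41, 4.55 and 6.94 in peripheral retina (log2 difference 1.12 ± 0.17, limma adjusted p = 0.00114).

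**Figure D2:**
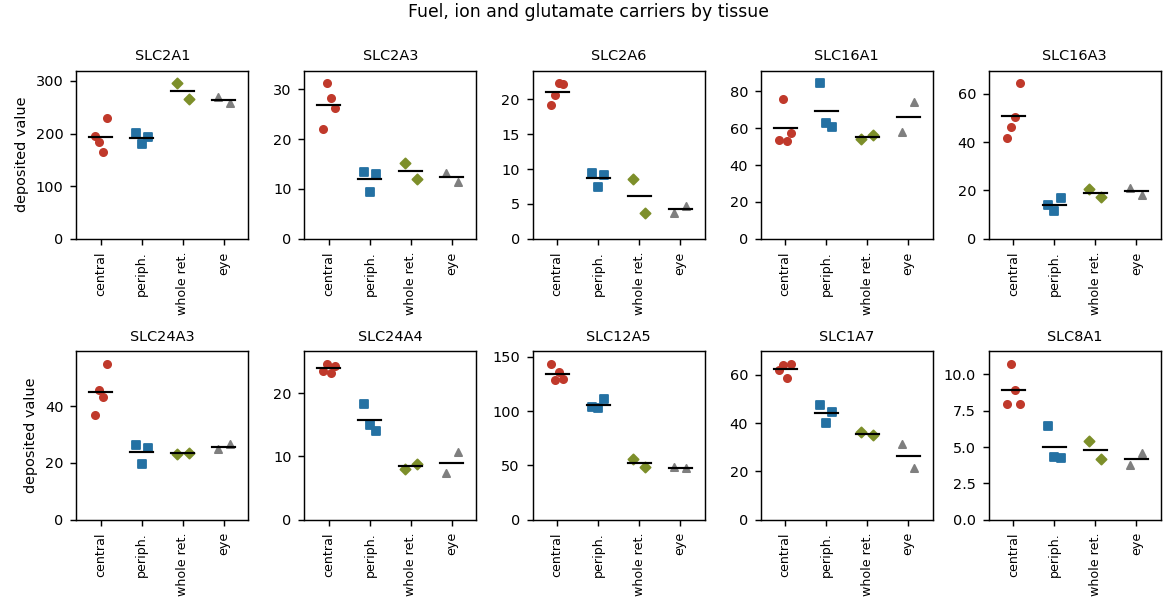
Deposited value (y axis, from 0, own scale in each panel) of 10 fuel, ion and glutamate carriers in the 4 tissues (x axis), with 1 point per library and a bar at the group mean. SLC2A3, SLC2A6, SLC16A3, SLC24A3 and SLC8A1 stand apart in central retina, SLC2A1 and SLC16A1 overlap between the regions, and SLC12A5 and SLC24A4 step down from central to peripheral to whole retina.

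The ion exchangers that were higher in central retina included 1 calcium exchanger driven by sodium, 2 driven by sodium and potassium, and a sodium-proton exchanger of neurons. SLC24A3, a calcium exchanger driven by sodium and potassium, stood at 36.9, 45.8, 43.2 and 55.1 in central retina, against 26.3, 19.7 and 25.2 in peripheral retina (log2 difference 0.90 ± 0.14, limma adjusted p = 0.00129). Its close relative SLC24A4 averaged 23.9 ± 0.649 in central and 15.7 ± 2.26 in peripheral retina (log2 difference 0.58 ± 0.13, limma adjusted p = 0.00991). The groups did not overlap in either gene. SLC8A1, the sodium-calcium exchanger, averaged 8.90 ± 1.30 in central and 4.98 ± 1.25 in peripheral retina (log2 difference 0.74 ± 0.16, limma adjusted p = 0.0089). SLC9A5, the sodium-proton exchanger, averaged 5.60 ± 0.486 in central and 3.35 ± 0.405 in peripheral retina (log2 difference 0.60 ± 0.13, limma adjusted p = 0.00886). SLC8A3, SLC9A7 and SLC9A9 were not called, with log2 differences from -0.51 to 0.39.

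Of the 5 cation-chloride cotransporters, only SLC12A5 was called. SLC12A5 extrudes chloride from mature neurons and so sets the response to GABA and glycine. Its values were 143.6, 128.6, 136.1 and 129.8 in central retina, against 103.7, 102.9 and 111.3 in peripheral retina, a small difference without overlap (0.34 ± 0.09, limma adjusted p = 0.0258). SLC12A2, which loads chloride, averaged 5.49 ± 1.32 in central and 7.12 ± 1.98 in peripheral retina (log2 difference -0.31 ± 0.20, limma adjusted p = 0.295). The call of SLC12A5 is sensitive: its adjusted p was 0.108 without peripheral library 2, 0.124 after quantile normalization, and it also exceeded 0.05 without central library 1 or 3 or peripheral library 1.

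SLC6A17 had the largest positive difference of all tested members. It is a neutral amino acid carrier of synaptic vesicles in neurons. Its values were 47.2, 51.9, 58.6 and 60.6 in central retina and 15.9, 8.42 and 12.6 in peripheral retina. Every central library was above every peripheral one, with a ratio of means of 4.42 (2.09 ± 0.19, limma adjusted p = 6.44e-05). The ganglion cell markers moved the same way, 6 of 6 tested being higher in central retina, and their part in this and the other higher members was not tested.

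Among the glutamate carriers, SLC1A7, which photoreceptors and bipolar cells use at their own synapses, had values of 62.1, 64.1, 58.6 and 64.5 in central retina, against 47.6, 39.9 and 44.7 in peripheral retina (log2 difference 0.49 ± 0.13, limma adjusted p = 0.019). SLC1A2, found in glia and in some retinal neurons, averaged 8.63 ± 1.99 in central and 8.92 ± 1.49 in peripheral retina, with an interval of the log2 difference from -0.46 to 0.35. SLC1A1, a neuronal glutamate carrier, averaged 6.55 ± 0.781 in central and 5.97 ± 0.214 in peripheral retina, with an interval from -0.13 to 0.35. Of the 4 members of this family tested here, SLC1A7 alone passed the threshold; whether its difference exceeds that of the others was not tested.

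The other amino acid carriers showed 2 more higher calls and 1 lower. SLC36A1, which moves small amino acids out of lysosomes, averaged 5.28 ± 0.484 in central and 2.34 ± 0.642 in peripheral retina (log2 difference 0.92 ± 0.15, limma adjusted p = 0.00174). SLC43A2, a carrier of large neutral amino acids, averaged 30.3 ± 2.69 in central and 23.1 ± 1.88 in peripheral retina (log2 difference 0.38 ± 0.11, limma adjusted p = 0.036). SLC7A2, which carries arginine and lysine, averaged 13.6 ± 2.43 in central and 19.3 ± 1.82 in peripheral retina (log2 difference -0.48 ± 0.15, limma adjusted p = 0.0432, but 0.0531 without the filter on low values). SLC38A3, the glutamine transporter of Müller glia, did not pass, at 274.9 ± 40.5 in central and 311.7 ± 34.2 in peripheral retina (interval -0.48 to 0.10). SLC7A14, a lysosomal member linked to inherited retinal degeneration, averaged 3.50 ± 0.322 in central and 2.51 ± 0.907 in peripheral retina (adjusted p by limma = 0.113).

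For 29 members the name is the start of another name in the tables or begins with one, and within a few of these sets the values appear to sit under different names in different libraries. The values under SLC6A11 and SLC6A12 moved in this way between libraries of the same tissue, and no difference under either name is read here. The values of SLC7A1 and SLC7A11 are the example shown.

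SLC7A1, a carrier of cationic amino acids, and SLC7A11, which exchanges cystine for glutamate and feeds glutathione synthesis, showed this pattern. The high value stood under SLC7A1 in central library 1 (24.9) and whole retina library 2 (8.47), and under SLC7A11 in the other 9 libraries. The higher of the 2 values was 24.9, 20.4, 20.5 and 25.5 in central retina and 8.36, 3.20 and 8.32 in peripheral retina, while the lower never exceeded 1.51. All central libraries were thus above all peripheral ones, although neither name alone was called (limma adjusted p = 0.345 for SLC7A1 and 0.567 for SLC7A11). Added up, the 4 names of the set averaged 27.4 ± 2.62 in central and 9.89 ± 2.18 in peripheral retina (log2 difference 1.40 ± 0.16, limma adjusted p = 0.000126, at most 0.000702 with any library left out). In that fit 22.6% of 10118 entries were called. Which of SLC7A1 and SLC7A11 carries the difference cannot be told apart here.

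**Figure D3:**
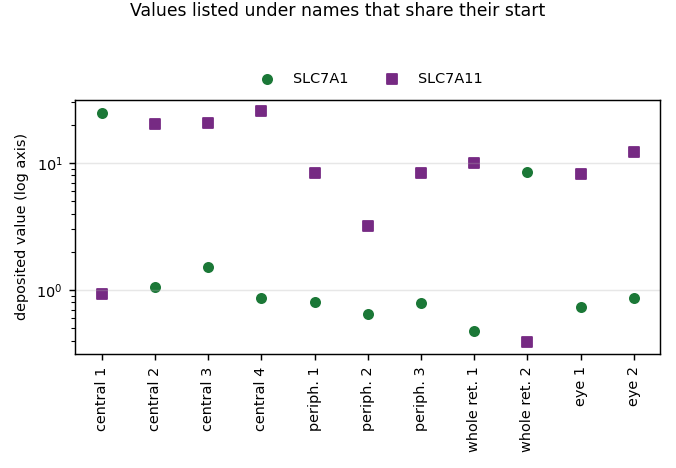
Deposited value (y axis, log scale) of SLC7A1 and SLC7A11 in each of the 11 libraries (x axis), with 1 point per name and library. In every library 1 name stands above the other, and which name that is changes between libraries of the same tissue.

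The SLC38A1 set was called only after adding up. SLC38A1, a glutamine carrier of neurons, averaged 48.6 ± 8.70 in central and 33.1 ± 7.35 in peripheral retina without overlap, and missed the threshold under its own name (0.55 ± 0.19, limma adjusted p = 0.0597). Summed with SLC38A10 and SLC38A11 it averaged 66.0 ± 7.14 in central and 47.5 ± 6.04 in peripheral retina (log2 difference 0.47 ± 0.12, limma adjusted p = 0.0188, but up to 0.0809 without peripheral library 3). SLC6A17, SLC6A13 and SLC6A20 also have names that share their start with others, SLC6A20 with SLC6A2. Their values kept to 1 level within each tissue, and SLC6A2, the noradrenaline transporter, stayed between 0.68 and 2.28 in all libraries.

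Carriers of other organic ions and of heme made up the rest of the higher members. SLC22A17, a receptor for the iron-binding protein lipocalin-2, had values of 119.8, 117.8, 137.7 and 169.2 in central retina and 78.7, 79.0 and 99.0 in peripheral retina (log2 difference 0.66 ± 0.15, limma adjusted p = 0.0106). SLC22A23, a member with no established substrate, averaged 9.91 ± 0.873 in central and 5.15 ± 0.586 in peripheral retina (log2 difference 0.83 ± 0.15, limma adjusted p = 0.00235). SLC48A1, a heme transporter of endosomes and lysosomes, averaged 22.2 ± 4.27 in central and 14.7 ± 1.45 in peripheral retina (log2 difference 0.55 ± 0.15, limma adjusted p = 0.0258).

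The members lower in central retina included carriers of proline, organic anions, zinc, GABA and dicarboxylates. SLC6A20, which takes up proline and related imino acids, had values of 1.52, 3.73, 2.10 and 3.76 in central retina, against 14.6, 16.7 and 17.1 in peripheral retina. The groups were far apart, peripheral retina being 5.80 times higher (-2.23 ± 0.24, limma adjusted p = 0.00016). SLC22A8, an organic anion transporter that clears metabolites and drugs across barrier epithelia, had values of 0.41, 0.79, 0.67 and 0.89 in central retina and 5.69, 3.93 and 7.73 in peripheral retina (log2 difference -1.97 ± 0.18, limma adjusted p = 6.44e-05). SLC13A3, which carries succinate and other dicarboxylates with sodium, had 0.53, 0.59, 0.71 and 0.40 in central retina and 2.44, 5.76 and 4.17 in peripheral retina (log2 difference -1.67 ± 0.20, limma adjusted p = 0.000267). No central library reached a peripheral one in these genes.

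SLC39A12, a zinc importer, had values of 0.76, 3.12, 1.39 and 1.64 in central retina and 8.91, 6.01 and 8.33 in peripheral retina (log2 difference -1.73 ± 0.24, limma adjusted p = 0.000644). SLC6A13, a GABA transporter found mainly outside neurons, had 1.49, 3.67, 1.64 and 2.25 in central retina and 8.03, 7.68 and 9.49 in peripheral retina (log2 difference -1.57 ± 0.21, limma adjusted p = 0.000445). SLC15A2, which takes up small peptides, had 2.86, 4.59, 2.67 and 2.94 in central retina and 8.57, 7.26 and 5.60 in peripheral retina (log2 difference -0.94 ± 0.23, limma adjusted p = 0.0162). In all 3 the highest central library was the second one, still below every peripheral library. Pigment epithelium markers moved with these genes, 5 of 6 being lower in central retina (RPE65 was not called), and so did 5 of 6 Müller glia markers (GLUL was not called). Of 6 rod markers, 4 were lower in central retina, namely CNGA1, NR2E3, SAG and PDE6A. The part of these cell types was not tested.

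**Figure D4:**
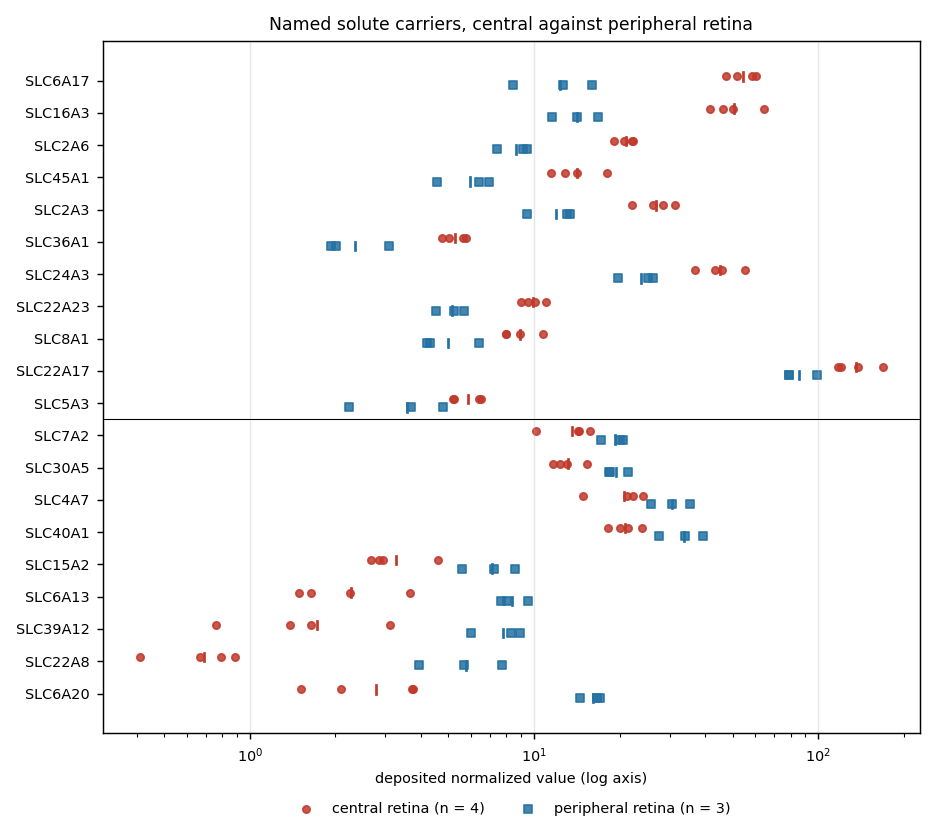
Deposited value (x axis, log scale) of 11 of the 12 members with the largest higher and the 9 with the largest lower difference in central against peripheral retina, among called members whose libraries do not overlap and whose higher group averages at least 5 (y axis; higher above the line, lower below it). Circles are the 4 central and squares the 3 peripheral libraries, with a tick at each mean; no circle lies among the squares of the same gene.

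Smaller differences in the same direction were found in metal, bicarbonate and lipid carriers. SLC40A1, ferroportin, the exporter of iron from cells, averaged 21.0 ± 2.40 in central and 33.6 ± 5.91 in peripheral retina (log2 difference -0.65 ± 0.15, limma adjusted p = 0.00977). SLC30A5, which loads zinc into the secretory pathway, averaged 13.1 ± 1.62 in central and 19.5 ± 1.74 in peripheral retina (log2 difference -0.54 ± 0.12, limma adjusted p = 0.0106). SLC4A7, a sodium bicarbonate cotransporter whose loss causes photoreceptor degeneration in mice, had values of 21.3, 22.4, 24.2 and 14.9 in central retina, against 30.6, 35.4 and 25.9 in peripheral retina (log2 difference -0.56 ± 0.17, limma adjusted p = 0.0364). SLC27A6 and SLC27A2, which take up fatty acids or activate them, averaged 0.250 ± 0.0942 and 0.505 ± 0.182 in central retina, against 2.11 ± 0.722 and 1.79 ± 0.276 in peripheral retina. Both were called, at limma adjusted p of 0.000487 and 0.00144.

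The other monocarboxylate calls named here were carriers of substrates other than lactate. SLC16A9, SLC16A10 and SLC16A12, known as carriers of carnitine, of aromatic amino acids and of creatine, had central means of 0.500, 1.13 and 0.380, against peripheral means of 1.45, 2.23 and 1.42, with log2 differences of -0.71, -0.61 and -0.83. SLC34A2, a sodium phosphate cotransporter, SLC44A3, a choline carrier-like protein, and SLC26A4, an anion exchanger, completed the lower members, with log2 differences of -0.71, -0.91 and -0.49. Low values compress differences on the log2(value + 1) scale, which applies to most genes of this paragraph.

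Carriers of the osmolytes taurine and creatine came near the threshold without passing it. SLC6A6, the taurine transporter, had values of 137.0, 105.9, 134.6 and 94.8 in central retina and 144.3, 163.4 and 180.1 in peripheral retina; the groups did not overlap, and the limma adjusted p was 0.0701. SLC6A8, the creatine transporter, averaged 110.9 ± 7.76 in central and 89.1 ± 8.45 in peripheral retina, also without overlap (0.31 ± 0.11, limma adjusted p = 0.0669). SLC38A2, a neutral amino acid carrier, averaged 21.2 ± 2.42 in central and 21.1 ± 1.13 in peripheral retina, with an interval from -0.35 to 0.36.

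With each of the 11 libraries left out in turn, 13 of the 20 higher and 13 of the 19 lower calls passed in every fit. The other 7 higher calls were SLC22A17, SLC5A3, SLC12A5, SLC1A7, SLC43A2, SLC48A1 and SLC6A2, and the other 6 lower calls were SLC15A2, SLC4A7, SLC30A5, SLC7A2, SLC26A4 and SLC16A10. Without peripheral library 2 none of these 13 passed, with limma adjusted p up to 0.190 (SLC6A2); SLC15A2 reached 0.0676 without peripheral library 1, and SLC5A3 reached 0.104 without peripheral library 3. SLC5A8, SLC9A5, SLC43A2, SLC6A2, SLC16A9, SLC16A10, SLC16A12, SLC26A4 and SLC44A3 lie outside the rule by which members were named and were added after their values were seen.

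Whole retina and whole eye differed in 3 of the 141 tested members, all lower in whole retina. That is 2.13% of the members, against 2.27% of all genes tested, of which 0.168% were higher and 2.1% lower. SLC4A11, a proton and water carrier of the corneal endothelium whose mutation causes corneal dystrophy, had values of 2.68 and 3.37 in whole retina and 16.1 and 11.2 in whole eye (-1.85 ± 0.38, limma adjusted p = 0.0257). SLC6A14, which carries neutral and cationic amino acids in epithelia, had 0 and 0.02 in whole retina and 4.66 and 3.01 in whole eye (-2.24 ± 0.16, limma adjusted p = 6.05e-06). SLC44A4, a choline carrier-like protein of epithelia, had 0.14 and 0.32 in whole retina and 1.68 and 1.04 in whole eye (-0.93 ± 0.16, limma adjusted p = 0.00684). The last 2 lie outside the naming rule and are given because the calls are few. No member was called higher with all libraries, but 5 were without whole retina library 2, 3 without whole eye library 1 and 1 without peripheral library 1 or 2.

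All 3 were also low in the retinal regions: SLC4A11 reached at most 3.38, SLC44A4 at most 0.13, and SLC6A14 was listed at 0 in all 7 regional libraries. The marker of corneal epithelium that was measured, KRT12, stood at 0.93 and 28.2 in whole retina, against 542 and 570 in whole eye, and 4 lens markers summed to 53.5 to 62.9 in whole retina, against 713 to 727 in whole eye; their part in the 3 calls was not tested. The call of SLC4A11 depends on single libraries: its adjusted p was 0.166 without whole retina library 1, 0.167 without whole eye library 1 and 0.0592 without whole eye library 2.

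At an unadjusted p under 0.05, 14 of the 141 members were higher and 9 lower in whole retina, against 4.99% and 5.61% of all genes at the same threshold. SLC13A3 had values of 42.0 and 34.4 in whole retina and 20.1 and 15.8 in whole eye (1.05 ± 0.27, limma adjusted p = 0.0867). SLC43A2 had 16.2 and 12.9 in whole retina and 9.45 and 8.86 in whole eye (limma adjusted p = 0.0712). SLC1A1 had 5.40 and 5.77 in whole retina and 8.17 and 8.66 in whole eye (limma adjusted p = 0.135). In each the libraries did not overlap, and none passed the threshold. SLC2A1 averaged 280.8 ± 21.5 in whole retina and 264.7 ± 8.19 in whole eye (SD, n = 2 each), with an interval of the log2 difference from -0.27 to 0.43.

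Set against whole retina, central retina had 31 members higher and 54 lower, and peripheral retina 14 higher and 50 lower, of 141 tested. These are 60.3% and 45.4% of the members, against 48.7% of all genes in central retina (18.9% higher, 29.7% lower) and 34.2% in peripheral retina (9.83% higher, 24.3% lower). Both comparisons use the same 2 whole retina libraries, so they are set side by side only. The split depends on scaling: after quantile normalization the counts were 44 higher and 42 lower in central retina, and 27 higher and 37 lower in peripheral retina, and the median over all genes was 0.12 and 0.16, against -0.10 and -0.08 as deposited. The 14 higher members of peripheral retina became 9 without peripheral library 2 and 6 without whole retina library 2.

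Against whole retina, the 4 members per region and direction with the largest difference are described, among called members whose libraries did not overlap and whose higher group averaged at least 5; the lower ones come first, with SLC39A12 added. SLC2A4, the insulin-responsive glucose transporter of muscle and fat, had values of 0.79, 0.99, 1.29 and 0.68 in central retina, 1.79, 1.11 and 1.84 in peripheral retina, and 32.3 and 47.4 in whole retina (log2 difference -4.38 ± 0.30 for central and -3.97 ± 0.32 for peripheral retina, limma adjusted p = 6.24e-07 and 3.65e-06). It stood at 34.1 and 13.8 in whole eye. Smooth muscle markers moved with it, summing to at most 4.36 in the regions and to 499 to 598 in whole retina, and their part was not tested. SLC13A4, a sulfate carrier, reached at most 0.33 in central and 0.81 in peripheral retina, against 19.1 and 9.19 in whole retina (-3.50 ± 0.25 and -3.15 ± 0.26, limma adjusted p = 8.39e-07 and 4.95e-06).

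SLC13A3, SLC22A8, SLC6A20 and SLC39A12 were lowest in central retina, intermediate in peripheral retina and high in whole retina and whole eye. SLC13A3 averaged 0.558 ± 0.129 in central retina, 4.12 ± 1.66 in peripheral retina and 38.2 ± 5.35 in whole retina, where its log2 difference to whole retina was -4.65 in central and -2.98 in peripheral retina. SLC22A8 averaged 0.690 ± 0.207 in central retina, 5.78 ± 1.90 in peripheral retina and 36.5 ± 0.587 in whole retina (-4.48 and -2.51). Its 2 whole eye libraries lay lower, at 26.2 and 24.7. SLC6A20 had 74.0 and 46.4 in whole retina and 38.4 and 27.5 in whole eye, above all regional libraries (-4.03 and -1.80). SLC39A12 had 21.7 and 26.5 in whole retina and 23.1 and 27.1 in whole eye, and these groups overlapped (-3.26 and -1.53). All 8 differences of the regions to whole retina were called by limma, at adjusted p of at most 0.00202. The summed pigment epithelium markers were likewise lowest in central retina, intermediate in peripheral retina and highest in the whole tissues. The summed Müller glia markers had the same order. That sum ranged from 2875 to 3102 over the whole-tissue libraries, against at most 2357 in any regional library. The single Müller glia markers did not all follow the sum. Of the 6, only 1 was called lower in peripheral than in whole retina and 0 higher. Their log2 differences ran from -1.37 to 0.56, with a median of -0.01. The part of these cell types and tissues was not tested.

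**Figure D5:**
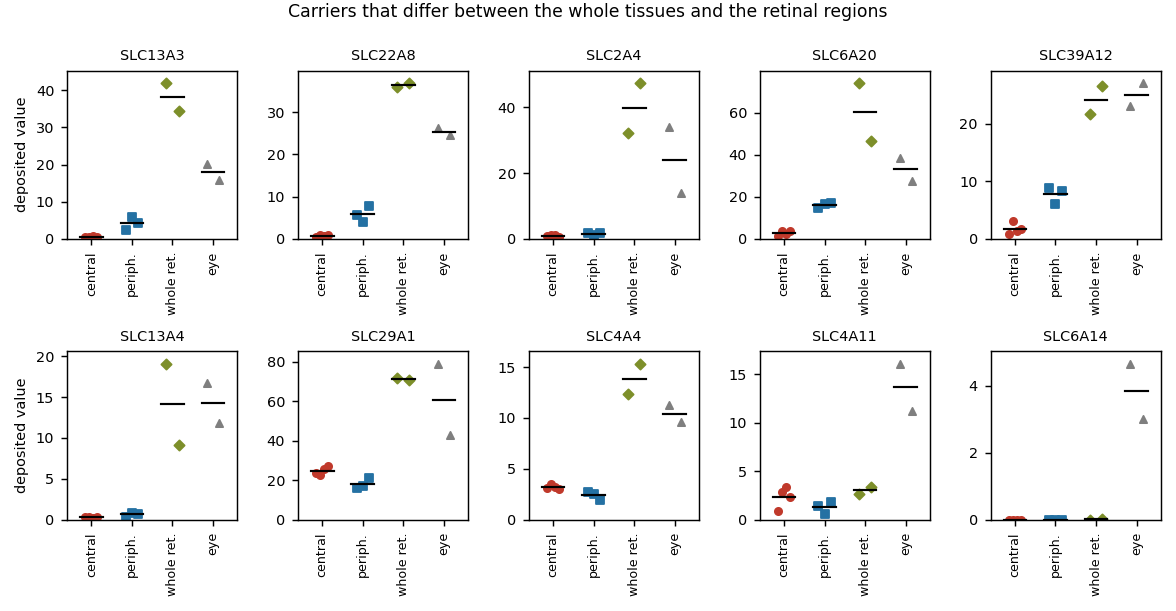
Deposited value (y axis, from 0, own scale in each panel) of 10 carriers in the 4 tissues (x axis), with 1 point per library and a bar at the group mean. SLC13A3, SLC22A8, SLC6A20 and SLC39A12 step up from central to peripheral retina to the whole tissues, SLC2A4, SLC13A4, SLC29A1 and SLC4A4 are low in both regions, and SLC4A11 and SLC6A14 are high in whole eye alone.

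Other carriers were low in both regions without a called difference between them. SLC29A1, the nucleoside transporter, averaged 24.7 ± 2.21 in central retina, 18.0 ± 2.62 in peripheral retina and 71.2 ± 1.01 in whole retina (-1.49 ± 0.21 and -1.94 ± 0.22, limma adjusted p = 0.000127 and 4.78e-05). SLC4A4, a sodium bicarbonate cotransporter of pigment epithelium, corneal endothelium and glia, averaged 3.21 ± 0.193 in central retina, 2.38 ± 0.431 in peripheral retina and 13.9 ± 2.06 in whole retina (-1.81 ± 0.14 and -2.14 ± 0.15, limma adjusted p = 1.98e-06 and 1.61e-06). SLC2A1 also was lower in both regions than in whole retina, at 296.0 and 265.6 in whole retina (-0.54 and -0.55, limma adjusted p = 0.00754 and 0.0133), but both calls were lost after quantile normalization (adjusted p = 0.105 and 0.501) and without whole retina library 1 (0.0619 and 0.0893), and that of peripheral retina with median scaling (0.0560).

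The members higher in the regions by the same rule were SLC6A17, SLC2A6, SLC24A4 and SLC12A5 in central retina and SLC12A5, SLC4A7, SLC1A2 and SLC24A4 in peripheral retina. SLC12A5 had 55.8 and 48.1 in whole retina, below every regional library (log2 difference 1.36 ± 0.11 for central and 1.02 ± 0.11 for peripheral retina, limma adjusted p = 1.84e-06 and 4.22e-05). SLC24A4 had 8.06 and 8.86 in whole retina (1.40 ± 0.15 and 0.82 ± 0.16, limma adjusted p = 1.74e-05 and 0.00204). SLC6A17 and SLC2A6 were higher in central retina than in whole retina by 2.34 and 1.71 on the log2 scale, while in peripheral retina the differences of 0.25 and 0.52 were not called. In peripheral retina SLC4A7 and SLC1A2 were the other large ones, at 1.00 ± 0.20 and 0.86 ± 0.22 (limma adjusted p = 0.00251 and 0.0106); SLC1A2 stood at 5.28 and 3.66 in whole retina. In central retina SLC1A2 was higher by 0.81 ± 0.21 and SLC4A7 by 0.45 ± 0.19, the second not called; neither SLC1A2 call held without whole retina library 2 (limma adjusted p = 0.102 in both).

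Partners that solute carriers rely on were examined as a group: chaperones of monocarboxylate transporters, the sodium pump, carbonic anhydrases, regulatory kinases, glutamine enzymes and glial channels. Of 26 listed, 22 were measured and 21 tested. In central against peripheral retina 2 were higher and 5 lower, against 12.5% and 8.76% of all genes. ATP1B1, a beta subunit of the sodium pump, averaged 408 ± 77.9 in central and 179 ± 34.8 in peripheral retina (log2 difference 1.18, limma adjusted p = 0.00146), and EMB, a chaperone of monocarboxylate transporters, 4.52 ± 1.18 in central and 1.86 ± 0.535 in peripheral retina (log2 difference 0.94, limma adjusted p = 0.00563). FXYD6, a regulator of the sodium pump, averaged 43.8 ± 6.55 in central and 95.6 ± 12.1 in peripheral retina (log2 difference -1.11, limma adjusted p = 0.00135). AQP4, CA12 and CA14 were also lower. BSG, the chaperone that brings SLC16A1 and SLC16A3 to the membrane, averaged 354.6 ± 55.5 in central and 329.6 ± 54.8 in peripheral retina (log2 difference 0.11, limma adjusted p = 0.662).

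In whole retina against whole eye 0 of the 21 partners were called by limma, against 2.27% of all genes. At an unadjusted limma p under 0.05, 3 partners were higher and 1 lower, against 4.99% and 5.61% of all genes. Against whole retina, 1 partner was higher and 9 lower in central retina, and 0 were higher and 8 lower in peripheral retina. All genes stood at 18.9% higher and 29.7% lower in central retina, and at 9.83% and 24.3% in peripheral retina. CA4, a membrane-bound carbonic anhydrase, averaged 1.04 ± 0.244 in central retina, 0.833 ± 0.284 in peripheral retina and 18.8 ± 5.99 in whole retina, with log2 differences of -3.25 for central and -3.41 for peripheral retina, both called by limma.

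For the members with the largest difference in each main comparison and direction, among called members whose libraries did not overlap and whose higher group averaged at least 5, the genes with the most similar pattern over the 11 libraries were looked up, by Pearson correlation of log2(value + 1), as a description. SLC6A20 had TNFSF13 (r = 0.994, a name that shares its start with others) and RGR (0.984) among its 3 closest. SLC6A17 had B4GALNT1 (0.997) and the locus LOC716900 (0.995) among its 3 closest. SLC4A11 was followed by GALNT3 (0.969), IGFBP3 (0.963) and EPHA1 (0.950). The 11 libraries fall into 4 tissues, so any gene that separates the same tissues scores high.

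The 25 members below the filter were SLC10A6, SLC13A2, SLC13A5, SLC16A7, SLC17A1, SLC17A3, SLC17A4, SLC18A1, SLC26A1, SLC28A2, SLC28A3, SLC30A3, SLC30A10, SLC38A4, SLC39A2, SLC41A2, SLC46A2, SLC5A1, SLC5A12, SLC6A5, SLC6A7, SLC6A16, SLC6A18, SLC6A19 and SLC7A13. Several are best known from kidney, intestine or liver, such as the citrate carriers SLC13A2 and SLC13A5 and the sodium glucose cotransporter SLC5A1. SLC30A3, the zinc carrier of synaptic vesicles, ranged from 0 to 0.16 over the 11 libraries. Among well-known carriers of the eye, SLC7A5, SLC17A7 and SLC44A1 were not analysed here.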

How the data were processed

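RNA of whole eye, whole retina and retinal regions was sequenced, and each of the 11 deposited tables holds 1 normalized signal value per gene for 1 library, made by the authors. GSNAP (an aligner) and HTSeq (a read counter) are named, without role or version, in the submitters' processing notes; the build, annotation and scaling behind the tables were not given in the sources used here, and coordinates are left out. Low values move in steps, and 30 to 45 of 108 to 111 low genes shared 1 step ratio between a library and the first whole eye library, which leaves absolute depth unknown. The planned test was kept: limma 3.58.1 (R 4.3.3) on log2(value + 1), genes averaging at least 1 in any group, 11 libraries in 4 groups sharing 1 variance per gene with a trend, two-sided, Benjamini-Hochberg over 11933 genes within each comparison. The procedure was tested on simulated tables.

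Of 13083 entries per table, 27 without a value and 61 exact duplicates were dropped, and 38 entries under repeated names stayed as separate entries. Grouping followed the tissue named in each label. Member names match 165 symbols of a current RefSeq annotation (T2T-MFA8v1.1; SLC2A3 has no match). The members, classes and lists were chosen with earlier results of these data known. Named are, in central against peripheral retina and whole retina against whole eye, the 12 members per direction with the largest difference among called members whose libraries do not overlap and whose higher group averages at least 5, 4 per direction in the other comparisons, the 3 highest per class and 33 well-known carriers; some of these are not reported here. Alternatives were pseudocounts of 0.1 and 5, other filters, quantile and median scaling, a fit on 2 groups, a replicate block, shared-start names left out or summed, and each library left out; leaving out libraries in the summed fit was added after the values were seen. Same-numbered libraries did not deviate together throughout, so no pairing was used.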

Additional observations from a re-analysis of the deposited data

Results flagged for a closer look

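In the 4 central retina libraries, 70 named members were examined for a library far from the others, by its gap to the nearest one over the whole range (Dixon's test at 95%). Chance flags about 1 in 20 such groups, and 5 members were flagged. Names whose high value changes place between libraries were left out. SLC38A1, a name with a shared start, reached 61.6 in library 2, against 43.34 to 45.7. SLC15A2 was highest in library 2, at 4.59, against 2.67 to 2.94. SLC19A2, a thiamine transporter, was highest in library 2, at 14.31, against 12.84 to 13.01. SLC34A2 was lowest in library 2, at 0.08, against 0.15 in the others. SLC20A2, a phosphate transporter, was lowest in library 1, at 9.23, against 10.85 to 11.18. Groups of 3 or fewer libraries were not examined.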

How the results depend on the processing

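In central against peripheral retina every count of calls stayed within 1.5 times the reported one under all alternatives run; with 1 library left out it was 15 to 25 higher and 13 to 23 lower. In whole retina against whole eye the 0 higher members became 1 with a pseudocount of 5 or the replicate block and 0 to 5 with 1 library left out (5 without whole retina 2, 3 without whole eye 1, 1 without peripheral library 1 or 2), and the 3 lower became 1 with a minimum mean of 5 and 1 with the replicate block (2 to 3 with 1 library left out). In peripheral against whole retina the 14 higher became 27 after quantile normalization, and 6 to 14 with 1 library left out (9 without peripheral library 2, 6 without whole retina 2); the 50 lower became 37 to 49. Central against whole retina gave 22 to 31 higher and 47 to 56 lower. The replicate block gave 18 higher and 17 lower in central against peripheral retina. SLC4A11 in whole retina against whole eye also missed the threshold with a pseudocount of 0.1 (adjusted p = 0.170), without a filter (0.0512) and with the block (0.0632). SLC26A7, an anion exchanger, in peripheral against whole retina changed sign to 0.0272 after quantile normalization (adjusted p = 0.920, reported as -0.52 and 0.0475). The cause was not tested in any of these. The number of libraries, 2 to 4 a group, limits precision, and depth is unknown. Same-numbered central and peripheral libraries correlated at -0.14, -0.06 and 0.36. With so few libraries and no animal named in the labels, these values cannot decide whether the numbers pair them.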
